A study of Arabidopsis thaliana with 32 samples.

Results

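The transcriptome of wild-type Arabidopsis thaliana roots grown for 8 days on the International Space Station was compared with that of roots grown for 8 days on the ground. The deposited table of this comparison lists 812 loci, those with a q-value of at most 0.05 in the authors' test, out of 4802 loci listed in any of the 12 tables of the series. All 812 were taken. Of these, 252 had a higher and 560 a lower level in flight, so 69.0% of the listed loci were lower. The authors tested 20035 loci, a number worked back from their p- and q-values, so 4.05% of the tested loci were called, 1.26% as higher and 2.8% as lower in flight. A called locus is a listed one throughout, and "rose" or "fell" is used only of called loci.

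Both groups were Col-0 seedlings for which the labels name no transgene or mutant allele; they were grown in light and stood on plates of 0.5× MS medium with Phytagel. The flight plates grew in Veggie, a plant growth unit with overhead LED lamps, in light of 100 to 135 µmol per square metre per second. The ground plates grew with a delay of 48 h in the ground copy of that unit, inside a chamber that repeated the temperature, carbon dioxide and light of the station. Plants of both groups were fixed in RNAlater, and whole roots were dissected from the thawed seedlings. Each group had 4 samples, each a pool of 2 to 3 roots, and libraries were built with the SMART-Seq v4 and Nextera kits on 10 ng of RNA. Weightlessness cannot be told apart from anything else that differed between the station and the ground unit. A pair of Sku6 groups (a line with an altered SPIRAL1 gene, which encodes a microtubule-bound protein) and the 4 day groups are used only for comparison.

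The authors deposited 1 level per group and locus in FPKM, a read density corrected for the length of the transcript and the size of the library, pooled over the 4 samples. Values of single samples, their spread and the depth of the libraries were not in hand, so each pair of levels is followed by a fold and not by a standard deviation. In whole roots, fewer cells of a type and less RNA per cell cannot be told apart.

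Roots grow away from light and hold few chloroplasts, yet a root on an illuminated agar plate receives light and switches on light-induced genes through the transcription factor HY5 and its B-box partners. A root also senses water status, with abscisic acid and dehydrin proteins, and oxygen, through ethylene response factors that are degraded while oxygen is present and otherwise switch on fermentation genes. The type-A response regulators, the jasmonate ZIM-domain (JAZ) proteins and the SPX proteins are feedback repressors that follow cytokinin, jasmonate and phosphate status, and their transcripts are widely used as readouts of those signals.

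Most of the called differences were small. The median fold was 1.498 for the loci that rose and 1.44 for those that fell, the median log2 over all called loci was -0.41, and 103 of the 812 loci differed at least 2-fold. Past that fold the directions were even, with 51 loci higher (0.255% of those tested) and 52 lower (0.26%), so 50.5% of these were lower, against 69.0% of all called loci. A difference of at least 4-fold was seen for 12 loci higher, 1 of which is listed at 0 on the ground, and 6 lower in flight. The excess of loci that fell grew with the level. Below a mean of 5 FPKM 37.1% of 62 called loci were lower, between 50 and 100 FPKM 72.7% of 139, and at 500 FPKM or more 91.5% of 59. The smallest called log2 difference shrank from 0.54 in the lowest class to 0.23 in the highest, so small differences were called only among abundant transcripts. The transcripts of protein-coding genes that fell were also shorter, with a median of 1344 nt against 1608 nt for those that rose and 1517 nt for all protein-coding genes. Among loci at 20 FPKM or more the medians were 1213 nt for 378 genes that fell and 1502 nt for 134 that rose. The part of transcript length in the direction of the calls was not tested.

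**Figure D1:**
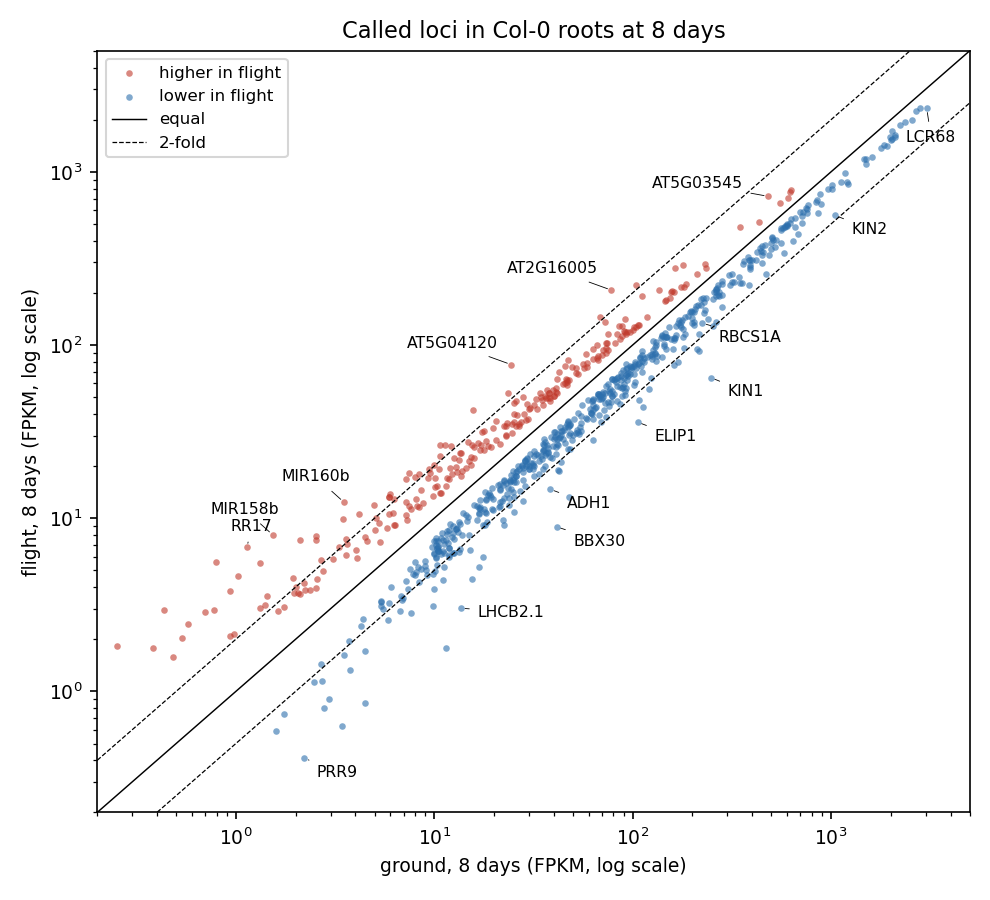
Level in flight against level on the ground in FPKM, both on log scales, for the called loci of Col-0 roots at 8 days; red points were higher and blue points lower in flight, the solid line marks equal levels and the dashed lines a 2-fold difference. Most points lie between the dashed lines, where 709 of the 812 loci fall, and the blue points outnumber the red ones at the upper end.

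**Figure D2:**
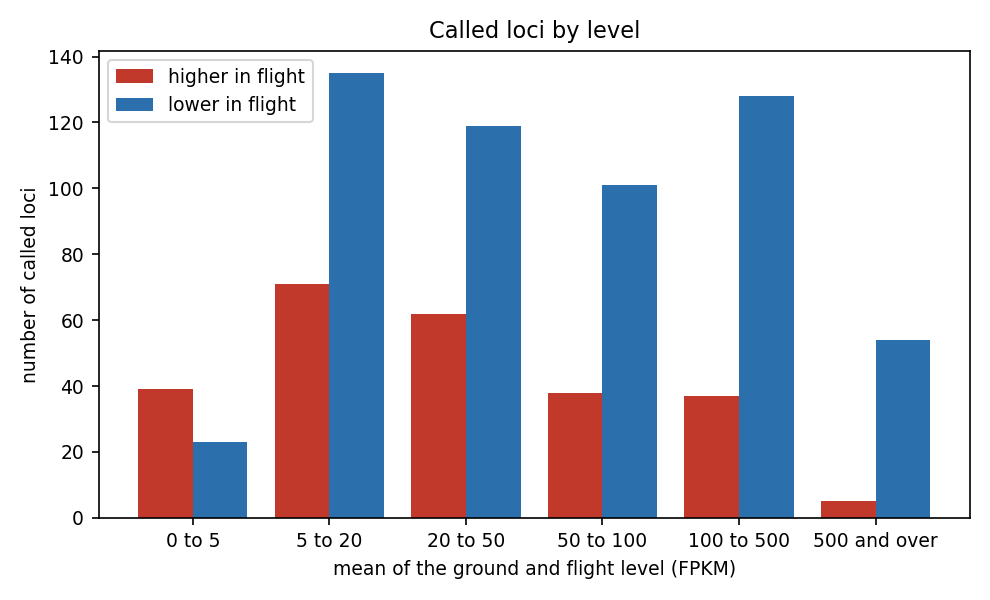
Number of called loci, higher (red bars) and lower (blue bars) in flight, in 6 classes of the mean of the ground and flight level in FPKM. In the lowest class 39 loci were higher and 23 lower, and in the highest class 5 were higher and 54 lower.

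Of the called loci, 771 held a single gene, 37 merged several genes and 4 held no annotated gene. The single-gene loci were 752 protein-coding genes, 5 microRNA precursors, 3 other non-coding RNAs, 1 long non-coding RNA, 5 pseudogenes and 4 transcribed pseudogenes, with 1 gene that has no entry in the annotation. They were spread over the 5 chromosomes, with 212 called loci on chromosome 1 and 122 on chromosome 4.

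Every called gene of the photosystem and antenna list was lower in flight. Called genes outside the list, such as PSBTN and ATPC1, are not counted here. Of 47 photosystem and antenna genes, 18 were called (38.3%) and all 18 fell, with a median log2 of -0.74. The share of list genes is taken over all genes matched by name, including any the authors did not test. The antenna proteins, which gather light for the photosystems, held the extremes. LHCB2.2 (AT2G05070, TAIR10.1 chr2:1799234-1800472) had 3.43 FPKM on the ground and 0.634 in flight, 5.40-fold lower, and LHCB2.1 (AT2G05100) had 13.6 and 3.02, 4.51-fold lower. The log2 of LHCB2.2 moved from -2.43 to -1.44 when 1 FPKM was added to each level. LHCB2.1 and LHCB2.2 are near copies that share 35.2% and 43.4% of their 25-base words, so reads could be split between them in a way the deposited level does not show. LHCB1.3 (CAB1) fell from 169 to 80.1 FPKM; it shares 29.2% of its 25-base words with CAB2 and 21.97% with CAB3, so the same limit holds. LHCB6, an antenna of photosystem II, fell from 43.4 to 21.1 FPKM. PSAH2, a subunit of photosystem I, fell from 41.9 to 19.1 FPKM, and NPQ4, the PsbS protein that dissipates excess light energy, from 48.2 to 25.1. The smallest called difference of the list was that of the ferredoxin gene FED A, at 141 FPKM on the ground and 115 in flight. The 18 genes thus fell between 1.23-fold and 5.40-fold in whole roots.

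Of 19 Calvin cycle genes 2 were called (10.5%, against 4.05% of all loci tested), both lower: RBCS1A, a small subunit of Rubisco, fell from 224 to 134 FPKM and GAPA-2, a chloroplast glyceraldehyde phosphate dehydrogenase, from 10.4 to 6.69. Of 20 chlorophyll synthesis genes 0 were called. Of 13 genes taken as markers of leaf or other shoot tissue 4 were called, all lower (RBCS1A, LHCB1.3, LHCB2.1 and LHCB2.2), and their summed level was 410.5 FPKM on the ground and 217.5 in flight. The other 9 were not called, and 4 of them had levels in tables of other comparisons, which were scaled separately. RCA (Rubisco activase) stood there at 16.4 FPKM on the ground and 11.3 in flight, and the Rubisco small subunit genes RBCS3B at 7.09 and 4.70, RBCS1B at 1.27 and 1.45 and RBCS2B at 0.636 and 1.28. Of 16 root markers 1 was called, SCR, a transcription factor of the endodermis and quiescent centre, at 10.67 FPKM on the ground and 14.05 in flight. Among uncalled root markers, tables of other comparisons gave WOX5, a factor of the quiescent centre, 9.37 FPKM on the ground and 8.46 in flight, ESB1, a Casparian strip protein, 31.9 and 24.9, and the nitrate transporter NRT2.1 0.662 and 0.313. Of the 7 seed and 3 pollen or flower markers 0 were called. The part of shoot tissue or of green cells of the root in the fall of the antenna genes was not tested.

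The called light signalling genes were lower too. Of 43 genes 7 were called (16.3%), all lower, 5 of them at least 2-fold, and the median log2 was -1.36. BBX30 and BBX31, small B-box proteins that act beside HY5, fell 4.65-fold (41.5 to 8.92 FPKM) and 3.48-fold (15.6 to 4.48 FPKM). ELIP1 and ELIP2, early light-induced proteins that protect chloroplasts in bright light, fell from 106 to 35.8 and from 113 to 43.9 FPKM. HFR1, a repressor of shade responses, fell from 11.2 to 5.21 FPKM and STO (BBX24), another B-box protein, from 264 to 137. HY5 itself fell 1.46-fold, from 78.9 to 53.9 FPKM. MYB12, an activator of flavonol synthesis in roots, fell from 63.2 to 28.4 FPKM and UGT78D2, a flavonoid glucosyltransferase, from 38.6 to 29.6. These were the 2 genes called among 24 of flavonoid synthesis (8.33%). The authors' deposited table gives a log2 of -2.22 for BBX30 and -0.55 for HY5, each with a q-value of 0.00263. That is the smallest q-value in the table and is shared by 381 of the 812 loci, so it does not rank these genes.

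All 7 called genes of 29 in the circadian clock list (24.1%) fell, with a median log2 of -1.36. PRR9, a pseudo-response regulator that peaks in the morning, stood at 2.22 FPKM on the ground and 0.411 in flight, 5.39-fold lower. At this low level the log2 of PRR9 was -2.43 and moved to -1.19 when 1 FPKM was added. EPR1 (RVE7), a MYB-like factor of the clock, fell 2.702-fold, the LNK family gene AT5G06980 2.63-fold and CDF3, a DOF factor of the day length response, 2.57-fold. RVE2 fell from 42.8 to 29.3 FPKM and PCL1 (LUX), a subunit of the evening complex, from 50.7 to 37.3. LHY, a MYB-like factor of the morning, fell least, from 10.2 to 7.66 FPKM. Morning and evening genes were thus among those that fell, and the sources used here give no hour of harvest.

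The 250 bases before the annotated start of 3 of these genes are shown because they hold the G-box, CACGTG, a sequence bound by HY5 and other bZIP or bHLH factors; capitals mark it. The sequences are read 5′ to 3′ on the strand of the gene from RefSeq TAIR10.1, at chr2:19232357-19232606 on the plus strand for PRR9, chr3:8085670-8085919 on the minus strand for ELIP1 and chr4:8708591-8708840 on the plus strand for BBX30.
PRR9: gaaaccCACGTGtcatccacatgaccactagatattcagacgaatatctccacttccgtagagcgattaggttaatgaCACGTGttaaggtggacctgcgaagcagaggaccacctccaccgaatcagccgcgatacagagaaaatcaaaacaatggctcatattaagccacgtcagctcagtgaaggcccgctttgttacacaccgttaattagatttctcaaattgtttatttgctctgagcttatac
ELIP1: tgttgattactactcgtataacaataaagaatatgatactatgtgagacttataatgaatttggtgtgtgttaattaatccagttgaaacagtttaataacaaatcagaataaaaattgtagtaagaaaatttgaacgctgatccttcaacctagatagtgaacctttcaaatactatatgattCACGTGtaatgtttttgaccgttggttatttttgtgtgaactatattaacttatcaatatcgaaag
BBX30: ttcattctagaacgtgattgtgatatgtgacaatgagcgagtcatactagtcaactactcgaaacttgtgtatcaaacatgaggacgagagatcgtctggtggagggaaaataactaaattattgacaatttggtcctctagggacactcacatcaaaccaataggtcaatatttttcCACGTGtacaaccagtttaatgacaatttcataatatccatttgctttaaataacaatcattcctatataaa
PRR9 holds the G-box at 2 places, and ELIP1 and BBX30 hold it once each. Over windows of the same length, 6.49% of the 27432 protein-coding genes held a G-box on either strand, 9.40% of the genes that fell and 11.7% of those that rose. It was present in 4 of the 7 called clock genes, 5 of 17 single-gene photosystem and antenna genes and 2 of 7 light signalling genes. The G-box was no more frequent in the genes that fell than in those that rose. The evening element core AAAATATC was in 3 of the 7 called clock genes and in 5.90% of all protein-coding genes. A match of letters is a description and not a binding site.

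The called genes of cold, dehydration and abscisic acid responses fell as well. Of 47 genes 11 were called (23.4%), all lower, with a median log2 of -0.58. KIN1 (AT5G15960, TAIR10.1 chr5:5209717-5210826), a small cold-induced protein, stood at 248 FPKM on the ground and 64.8 in flight, 3.83-fold lower. Its neighbour KIN2, 892 bases downstream, fell from 1046 to 561 FPKM. KIN2 holds 10.8% of the 25-base words of KIN1 and was the more abundant of the pair. The deposited levels do not show how reads were split between them, so the size of the fall of KIN1 is uncertain to that extent. The dehydrins, hydrophilic proteins of drying and chilled cells, fell less: LTI30 from 282 to 167 FPKM, ERD10 from 203 to 136, COR47 from 391 to 281 and ERD14 from 448 to 373. GolS3, a galactinol synthase of the cold response, fell 2.32-fold to 2.90 FPKM. LTI78 (RD29A), a standard reporter gene of cold and drought, stood at 3.70 FPKM on the ground and 1.94 in flight. ABF3, a transcription factor of abscisic acid signalling, fell from 26.53 to 19.96 FPKM. KIN1 stood apart from the rest of the list, of which only GolS3 also fell more than 2-fold.

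The promoter of LTI78 is shown because it is the textbook case of the dehydration-responsive element; capitals mark its core CCGAC. It is given for the 250 bases before the start of the gene, TAIR10.1 chr5:21240467-21240716, plus strand.
LTI78: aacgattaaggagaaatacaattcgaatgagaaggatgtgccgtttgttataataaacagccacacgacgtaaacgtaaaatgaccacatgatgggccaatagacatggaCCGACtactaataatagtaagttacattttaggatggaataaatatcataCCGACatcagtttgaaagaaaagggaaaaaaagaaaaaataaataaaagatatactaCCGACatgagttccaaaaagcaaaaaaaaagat
The window holds the core at 3 places. The core was present in 11.97% of all protein-coding genes, 15.2% of those that fell and 10.4% of those that rose. It was in 4 of the 11 called genes of the cold list (36.4%) and in 4 of the 7 called clock genes (57.1%). Whether the core was more frequent in either list than in other genes was not tested. The windows of KIN1 and KIN2 held no core.

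The called genes of the low-oxygen response were lower in Col-0 flight roots, and 6 of them were higher in Sku6 flight roots. Of 27 genes 8 were called (29.6%), all lower, with a median log2 of -0.74. The fermentation enzymes moved most. PDC1 (pyruvate decarboxylase, AT4G33070, TAIR10.1 chr4:15952257-15954803) fell from 16.8 to 5.22 FPKM, 3.22-fold, and ADH1 (alcohol dehydrogenase, chr1:28975255-28977417) from 38.4 to 14.7, 2.61-fold. FTM1 (SAD6), a stearoyl desaturase induced by lack of oxygen, fell from 23.9 to 11.9 FPKM. The oxygen-sensing plant cysteine oxidases fell less, AT5G15120 (PCO1) from 25.8 to 16.2 and a merged locus with AT5G39890 (PCO2) from 19.5 to 11.2 FPKM. LBD41, a transcription factor of the response, fell from 29.9 to 19.3 FPKM, the haemoglobin HB1 from 144 to 101 and the sucrose synthase SUS1 from 10.4 to 7.42. The authors' deposited table gives q-values of 0.00263 for ADH1, FTM1, LBD41 and HB1, the smallest value, which 381 of the 812 loci share. The q-value of SUS1 is 0.0129.

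In Sku6 roots at 8 days 6 of these 8 loci were called higher in flight. ADH1 stood at 12.2 FPKM on the Sku6 ground and 26.47 in Sku6 flight, FTM1 at 4.65 and 15.8, and HB1 at 83.8 and 150.2. SUS1 stood at 7.21 and 10.099 FPKM, AT5G15120 at 15.8 and 23.2, and the merged PCO2 locus at 9.71 and 18.5. The Col-0 ground level was the highest or close to the highest of the 4 groups for each of them. LBD41 and PDC1 were not called in that table and had 20.9 and 23.598, and 9.69 and 11.9 FPKM, in tables of the genotypes. The difference between the genotypes in the flight effect was not tested. At 4 days the Col-0 levels of ADH1 were 4.69 FPKM on the ground and 3.70 in flight, and those of HB1 were 40.1 and 48.7, so both were higher at 8 days than at 4 days in each place of growth.

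**Figure D3:**
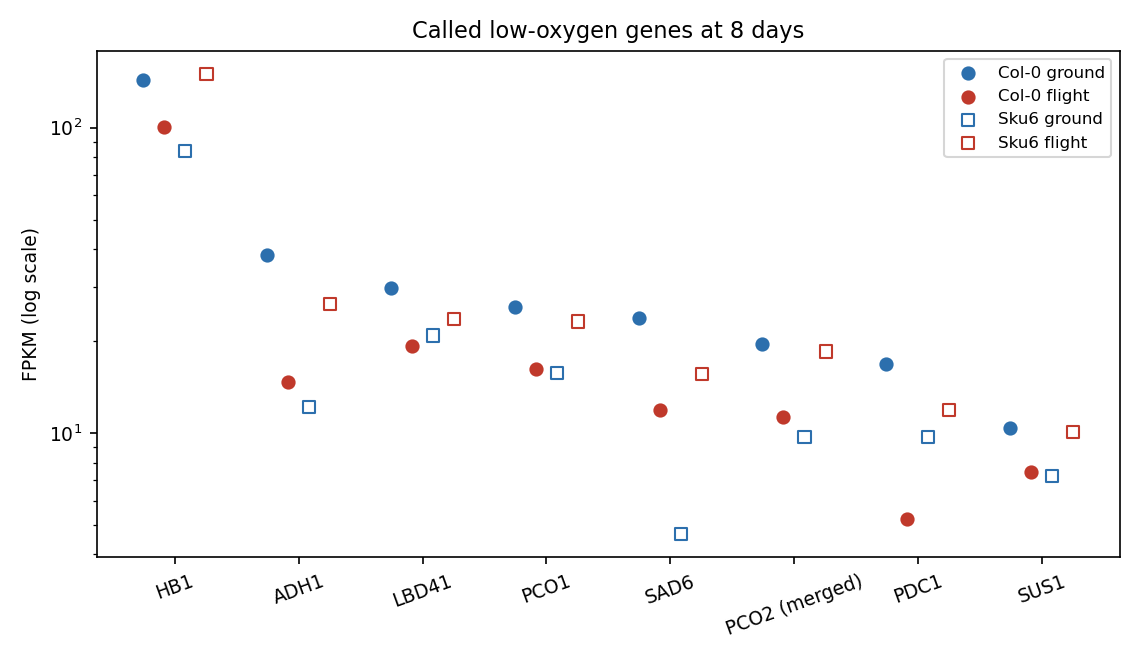
Deposited level in FPKM on a log scale of the 8 called low-oxygen loci at 8 days, with 1 point per group: filled circles for Col-0, open squares for Sku6, blue for ground and red for flight. In Col-0 every flight point lies under its ground point, and in Sku6 every flight point lies over its ground point, by a called difference at 6 of the 8 loci.

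The called suberin and lipid-transfer genes fell, and wall genes were called in both directions. The endodermis wraps its cells in suberin, a waxy polyester that limits the passage of water, and 6 of 37 genes of this list were called (16.2%), all lower, with a median log2 of -0.68. GPAT5 and GPAT6, acyltransferases of suberin and cutin, fell from 9.96 to 6.21 and from 10.8 to 6.18 FPKM. FAR5, which makes fatty alcohols, fell from 52.3 to 32.2 FPKM and CYP86A1, a fatty acid hydroxylase, from 41.3 to 25.7. The transporter ABCG2 fell from 8.99 to 5.68 FPKM. The fall of these 5 genes lay between 1.58-fold and 1.75-fold.

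Among 40 genes of xylem and secondary walls 3 fell (7.5%, against 4.05% of all loci tested called): the laccase gene IRX12 from 19.2 to 13.3 FPKM, CTL2 (chitinase-like) from 47.0 to 35.9 and the peroxidase AT5G66390 from 81.3 to 63.7. Of 33 XTH genes, whose enzymes cut and rejoin xyloglucan in the wall, 8 were called (24.2%), 3 higher and 5 lower. XTH19 rose from 45.8 to 75.6 FPKM, and XTH9 fell from 356 to 229 and XTH32 from 91.3 to 54.5. Of 67 genes annotated as peroxidase superfamily proteins 13 were called (19.4%), 2 higher and 11 lower. AT1G49570 rose from 1.02 to 4.61 FPKM (log2 2.17, or 1.47 with 1 FPKM added) and AT5G19890 from 5.95 to 13.8, whereas AT2G18150 fell from 107 to 47.9. Lipid-transfer proteins were called at 14 of 106 genes (13.2%) and all 14 fell, among them the merged locus that also holds MIR848. DIR1, a member that carries a mobile defence signal, fell from 182 to 96.2 FPKM.

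Small secreted peptides and water channels fell at high levels. The GASA genes, gibberellin-regulated cysteine-rich peptides, were called at 4 of 7 (57.1%), all lower. GASA1 fell from 1126 to 877 FPKM and GASA6 from 36.7 to 23.9. The RALF peptides, which act on wall and pH through receptor kinases, were called at 4 of 33 (12.1%), all lower. RALF1 fell from 661 to 538 FPKM and RALFL22 from 508 to 403. Aquaporins, the water channels of plasma and vacuolar membranes, were called at 6 of 26 (23.1%), 5 lower. TIP2;3, a tonoplast channel, fell from 69.4 to 35.8 FPKM, PIP2A from 660 to 479 and RD28 (PIP2;3) from 143 to 98.9, and NLM1 was the member that rose, from 86.4 to 109 FPKM. PIP2B and RD28 share 27.0% and 29.8% of their 25-base words, which leaves the split of their reads uncertain. Plant defensin genes with the highest levels fell little: LCR68 from 3035 to 2323 FPKM and LCR69 from 2556 to 1992.

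The list of SPIRAL and tubulin genes had 2 called of 32 (6.25%), both lower: SP1L5, a relative of SPIRAL1, fell from 210 to 94.6 FPKM and SP1L2 from 255 to 129. The touch, calcium and annexin list had 4 of 30 called (13.3%), 1 higher and 3 lower. The annexin genes ANNAT1 and ANNAT7 fell from 1791 to 1371 and from 28.8 to 21.8 FPKM, TCH2, a calmodulin-like touch gene, fell from 111 to 87.5, and the stretch-activated channel MSL10 rose from 13.6 to 17.5. Of 17 genes of gravity sensing and amyloplasts 1 was called: SGR5, a zinc finger factor of the shoot endodermis, rose from 2.05 to 3.69 FPKM. Of 71 auxin genes 5 were called, 1 higher and 4 lower, among them IAA2, a repressor of auxin response, which fell from 87.7 to 69.3 FPKM. The shares called in the SPIRAL and tubulin list (6.25%), the auxin list (7.04%) and the gravity list (5.88%) lie near the 4.05% of all loci tested.

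**Figure D4:**
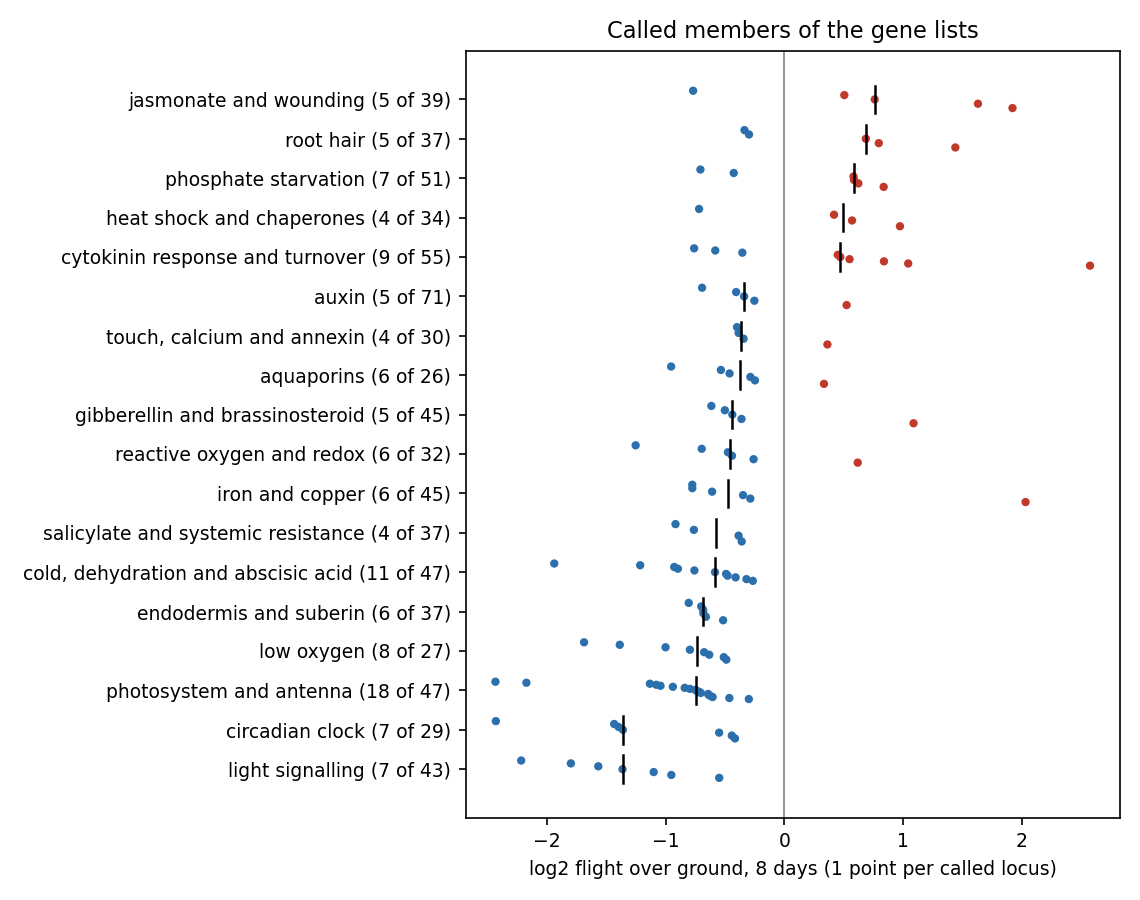
Log2 of flight over ground for each called member of the gene lists with 4 or more called members; red points were higher and blue points lower in flight, black bars mark the median, and the numbers in brackets give called and matched genes. Lists of light, clock, cold, low oxygen, suberin and salicylate genes hold blue points only. The jasmonate, root hair, phosphate, heat shock and cytokinin lists have a median above 0. In the iron and copper list the merged locus of FRO4 and FRO5 is drawn for each of these genes.

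Hormone feedback genes were among those that rose. In the cytokinin list 9 of 55 genes were called (16.4%), 6 higher and 3 lower, with a median log2 of 0.47. RR17 (ARR17, AT3G56380, TAIR10.1 chr3:20905264-20906397), a type-A response regulator, rose from 1.14 to 6.78 FPKM, 5.96-fold; its log2 of 2.57 moved to 1.86 with 1 FPKM added. The related ARR15 rose from 9.35 to 19.3 FPKM and ARR3 from 17.5 to 31.3, whereas ARR7 fell from 65.7 to 43.9 and ARR4 from 189 to 148. The type-A regulators did not move together. AHP1, which passes the phosphate of the signal on, rose from 346 to 480 FPKM, and LOG8, an enzyme that frees active cytokinin, from 46.3 to 63.3.

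In the jasmonate and wounding list 5 of 39 genes were called (12.8%), 4 higher and 1 lower. JAZ7, a repressor of jasmonate response, rose from 2.54 to 7.85 FPKM, 3.097-fold, and JAZ5 from 5.02 to 8.50. TIFY10B (JAZ2) rose from 31.8 to 45.1 FPKM. TAT3, a tyrosine aminotransferase induced by wounding, stood at 0.538 FPKM on the ground and 2.04 in flight, with a log2 of 1.92 that moved to 0.98 with 1 FPKM added. VSP2, a storage protein and jasmonate marker of leaves, fell from 76.2 to 44.7 FPKM. MYB51, which activates indole glucosinolate synthesis, rose from 2.68 to 5.73 FPKM, and the synthesis enzyme CYP79B2 fell from 92.1 to 73.2. In the salicylate list 4 of 37 genes were called (10.8%) and all fell, DIR1 and 3 genes of defensins, small antimicrobial peptides.

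Phosphate starvation genes had 7 of 51 members called (13.7%), 5 higher and 2 lower. SPX1, which senses inositol phosphates, rose from 32.7 to 49.1 FPKM, the non-coding RNA gene AT5G03545 from 482 to 722, and RNS1, a secreted ribonuclease, from 5.26 to 9.40. SRG3, a glycerophosphodiester phosphodiesterase, rose from 17.1 to 26.4 FPKM. PEPC1 (AT1G17710), a phosphatase, is listed at 0 on the ground and at 2.118 FPKM in flight, with a q-value of 0.0493 in the authors' deposited table, and no fold is given. NPC4, a phospholipase C of phosphate-starved roots, and PHT1;1, the main phosphate importer, fell from 10.5 to 6.46 and from 113 to 84.4 FPKM. The P1BS motif GNATATNC, bound by the phosphate factor PHR1, lay in the window of 3 of the 7 called genes. These were SRG3 and AT5G03545, which rose, and NPC4, which fell. The motif was in 5.45% of all protein-coding genes, 7.79% of those that rose and 6.14% of those that fell. It was also in 2 of the 11 called genes of the cold list.

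Root hair genes were called at 5 of 37 (13.5%), 3 higher and 2 lower. PRP1, a proline-rich wall protein of root hairs, rose from 15.6 to 42.4 FPKM, 2.71-fold, and RHS18, a peroxidase specific to root hairs, from 13.7 to 23.8. RALF1 and RALFL22 were the members that fell. Of 34 chaperone genes 4 were called (11.8%). HSP90.1 rose from 5.09 to 9.99 FPKM, Hop3 from 10.3 to 15.3 and Hsp70-2 from 14.5 to 19.4. The small heat shock protein HSP18.2 fell from 24.3 to 14.8 FPKM. Of 45 iron and copper genes 6 were called, 5 lower. BHLH100, a transcription factor of iron deficiency, stood at 0.698 FPKM on the ground and 2.86 in flight; its log2 of 2.03 moved to 1.18 with 1 FPKM added, and the authors' deposited table gives a q-value of 0.0461. COPT2, a copper importer, fell from 348 to 228 FPKM and FSD1, an iron superoxide dismutase, from 2362 to 1936.

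In the redox list 6 of 32 genes were called (18.8%, against 4.05% of all loci tested), 1 higher and 5 lower, among them RBOHA, an oxidase that makes superoxide, at 1.75 FPKM on the ground and 0.736 in flight. The gibberellin and brassinosteroid list had 5 of 45 genes called (11.1%), the 4 GASA genes and KDR (PRE6), a small helix-loop-helix protein of cell elongation that rose from 10.7 to 22.7 FPKM. The dark and low energy list had 3 of 42 called (7.14%), 2 higher and 1 lower. ATCTH (TZF1), a zinc finger protein, rose from 5.89 to 13.2 FPKM. Called genes numbered 2 of 54 for nitrate and nitrogen (3.70%), both lower, and 1 of 33 for sulfate (3.03%), lower. They numbered 2 of 57 for the cell cycle (3.51%) and 2 of 36 for ethylene (5.56%), each with 1 higher and 1 lower. Of 17 seed storage genes 0 were called. The shares of these lists lie near or under the 4.05% of all loci tested.

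Several genes with strong differences stood outside the lists. AT5G55620, of unknown function, rose from 0.798 to 5.61 FPKM (log2 2.81, or 1.88 with 1 FPKM added), and AT5G04120, of the phosphoglycerate mutase family, from 24.4 to 77.0. AT2G16005 rose from 78.2 to 207 FPKM and AT3G29410, annotated as a terpenoid cyclase, from 7.42 to 18.3. The F-box gene AT1G73120 fell most among single-gene loci with at least 5 FPKM in a group, from 11.4 to 1.78 FPKM, 6.42-fold. AT1G12805 fell from 47.7 to 13.3 FPKM and AT3G17130, an inhibitor of invertases or pectin methylesterases, from 9.80 to 3.12. Low-level risers included CAX7, a calcium exchanger, at 0.253 FPKM on the ground and 1.82 in flight, and HAK5, the high-affinity potassium importer, at 0.381 and 1.78. Adding 1 FPKM took the log2 of CAX7 from 2.85 to 1.17 and that of HAK5 from 2.22 to 1.01; these 2 were chosen after their values were seen.

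Other genes chosen after their values were seen belong to triterpene, sterol and nucleolar functions and rose by smaller factors. THAS1 (thalianol synthase) rose from 8.37 to 17.9 FPKM and its cluster neighbour CYP708A2 (thalianol hydroxylase) from 47.3 to 81.8. The marneral synthase MRN1 rose from 1.63 to 2.91 FPKM, and was called lower in the other 3 flight and ground comparisons. CAS1, which makes the sterol precursor cycloartenol, rose from 20.6 to 28.2 FPKM and the sterol reductase gene DWF5 from 73.2 to 96.4. NOP10, a nucleolar protein, rose from 554 to 662.5 FPKM. Genes with a ribosomal protein in their annotation were called at 11 of 380 (2.89%), 6 higher and 5 lower, a share under the 4.05% of all loci tested.

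The called microRNA precursors are printed by their mature products, with the seed (bases 2 to 8) in capitals. The whole product is given because plant microRNAs cut transcripts that pair with them along most of their length. The seeds of the 5 products differ from each other. Sequences are from RefSeq TAIR10.1, at chr1:20772273-20772292 for miR158b, chr4:9888986-9889006 for miR160b, chr1:24884359-24884382 for miR163, chr2:19176241-19176261 for miR166a-3p and chr4:12625128-12625148 for miR824-5p, all on the plus strand.
miR158b: cCCCAAAUguagacaaagca
miR160b: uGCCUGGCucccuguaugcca
miR163: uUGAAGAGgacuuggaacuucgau
miR166a-3p: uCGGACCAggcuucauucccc
miR824-5p: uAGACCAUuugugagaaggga
The precursors MIR158b and MIR160b rose, and the others fell. MIR158b stood at 1.53 FPKM on the ground and 8.03 in flight, with a q-value of 0.0277 in the authors' deposited table, and MIR160b at 3.502 and 12.4. MIR163 fell from 216 to 116 FPKM, MIR824 from 18.5 to 9.45 and MIR166a from 9.82 to 4.75. A merged locus of MIR848 with AT5G13890 and AT5G13900 fell from 162 to 107 FPKM. That level belongs to the whole merged locus, which is also counted among the lipid-transfer genes, and not to the precursor alone. The other levels are of the longer precursor RNA, not of the mature microRNA. ARF10, ARF16 and ARF17, the auxin response factors that miR160 cuts, were not called (0 of 3).

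Among called genes that follow each other in the annotation, 42 pairs were found. Of these 35 had the same direction, 10 both higher and 25 both lower, and 7 were opposite. Of all called loci 69.0% were lower and 31.0% higher, so many pairs of called loci share a direction wherever they lie. Whether neighbours shared it more often than other pairs was not tested. The pairs include KIN1 with KIN2, COR47 with ERD10 and, among the genes that rose, CYP708A2 with THAS1.

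Most calls in Col-0 at 8 days kept their direction where they were called in other flight and ground comparisons with no sample in common. The Col-0 comparison at 4 days called 1414 loci (7.21% of those tested), and 319 were shared with 8 days. Of these 303 had the same direction, 84 both higher and 219 both lower, or 37.3% of the 8 day list and 21.4% of the 4 day list. The Sku6 comparison at 8 days called 496 loci (2.51%), and 187 of 201 shared loci had the same direction, or 23.0% of the Col-0 list and 37.7% of the Sku6 list. The Sku6 comparison at 4 days called 869 loci (4.45%), with 186 of 219 shared loci in the same direction. Whether the flight effect differed between ages or genotypes was not tested.

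All 4 flight and ground comparisons called 106 of the 812 loci, 85 lower and 18 higher in each, and 3 with mixed directions. BBX30 had a log2 of -2.22 in Col-0 at 8 days, -2.72 in Col-0 at 4 days, -3.62 in Sku6 at 4 days and -2.04 in Sku6 at 8 days. ELIP1 had -1.57, -2.42, -3.59 and -2.52 in the same order. The peroxidase AT1G49570 was the strongest riser of this group, with a log2 of 2.17, 3.87, 3.31 and 3.101. These 3 genes were named because all 4 comparisons called them, and each kept its direction. Peroxidases called in all 4 went both ways, as AT5G19890 was higher and AT5G66390 lower in each. A further 384 of the 812 loci (47.3%) were called in no other flight and ground table, 128 higher and 256 lower.

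Some loci moved the other way elsewhere. MIR160b, which rose in Col-0 at 8 days, fell from 20.9 to 3.13 FPKM in Sku6 at 8 days. MRN1, which rose in Col-0 at 8 days, was lower in flight in each of the other 3 comparisons, with a log2 of -1.39 in Col-0 at 4 days, -2.83 in Sku6 at 4 days and -0.86 in Sku6 at 8 days. AT1G12805 fell in Col-0 and rose in Sku6 from 13.8 to 35.7 FPKM, and COPT2 fell in Col-0 and rose in Sku6 from 206 to 270.0. UMAMIT14, an amino acid exporter, rose from 12.5 to 22.4 FPKM in Col-0 at 8 days and fell from 23.5 to 13.4 at 4 days. XTH17 also fell at 4 days, from 73.4 to 52.3 FPKM, and SIAR1, another amino acid transporter, from 324 to 181. Of the 16 loci opposite at 4 days, 9 were higher and 7 lower at 8 days, and of the 14 opposite in Sku6, 2 were higher and 12 lower in Col-0.

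**Figure D5:**
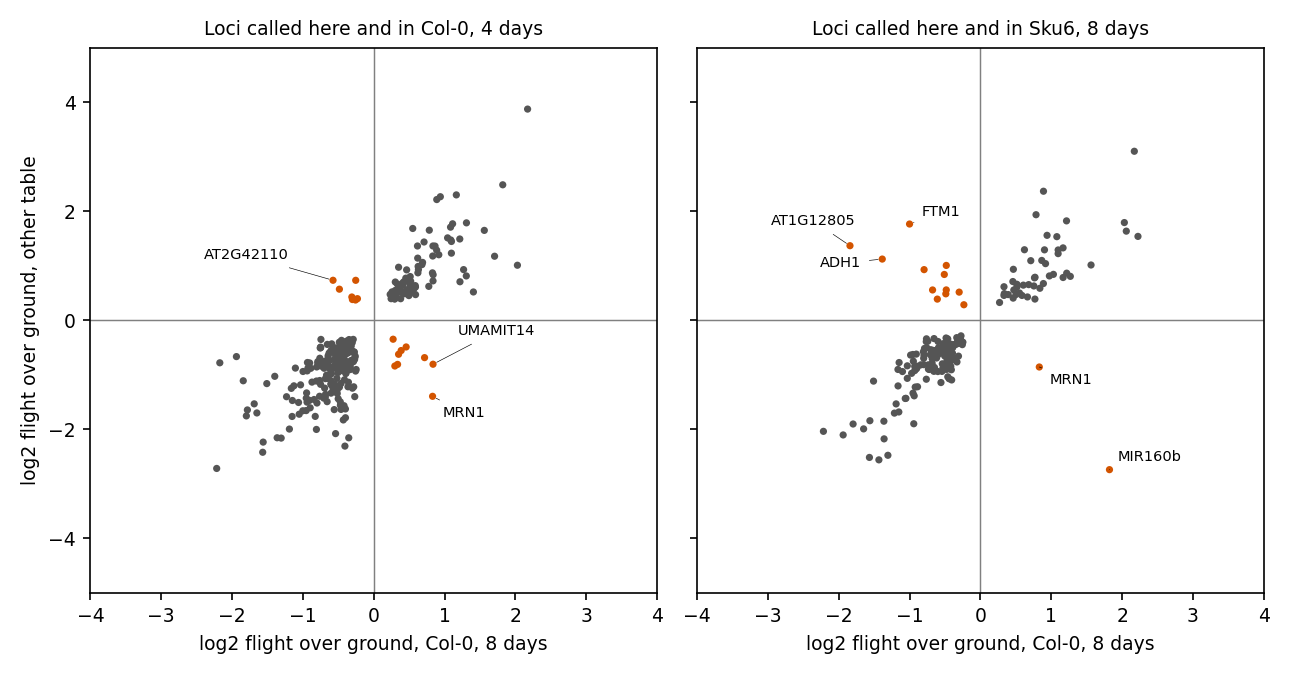
Log2 of flight over ground in Col-0 at 8 days (x axis) against the same value in Col-0 at 4 days (left) and in Sku6 at 8 days (right), 1 point per locus called in both; orange points have opposite signs. There are 16 orange points among 319 on the left and 14 among 201 on the right, where ADH1 and FTM1 lie at the upper left.

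Ground roots differed between ages at many of the same loci, in comparisons that share a group with this one and are given side by side only. VSP2 stood at 1.18 FPKM in ground roots at 4 days and 76.2 at 8 days, and DIR1 at 2.89 and 182. KIN1 stood at 103 FPKM on the ground and 64.7 in flight in Col-0 at 4 days, and at 351 and 81.7 in Sku6 at 8 days.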

How the data were processed

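RNA was measured in whole roots by sequencing, in 8 groups of 4 samples. The submitters' processing notes name the build TAIR10, the aligner STAR 2.5.1b, the read tools Trimmomatic 0.36, Picard and FastQC 0.11.2, and Cuffdiff with Cufflinks; the sources used here give neither their order nor their settings. Per the file headers, each deposited table holds 1 FPKM value per group, the log2 fold change, a test statistic, a p-value and a q-value. The test statistic, a score the authors deposited, was not used. No entry of the deposited tables has a q-value above 0.05, so a locus that is not listed is not shown to be unchanged. Columns of per-sample values not used here number 0.

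The comparison was the authors' test, with 4 samples per group that were separate pools of roots. No test was added, because the files used hold no value per sample; depth is unknown and no interval was computed. Folds were computed as flight over ground from the 2 FPKM columns, with positive log2 values for higher levels in flight. The computed log2 differed from the deposited log2 by at most 1.02e-05. Dividing out the rank and p-value from each q-value gave the number of loci tested. Over the 812 called loci the estimates ran from 20035 to 20035.1. Simulated q-values made by the same formula had to return the number put in, so they do not check how the authors made theirs. The tables were scaled separately: the level of 1 group differed by up to 1.04-fold between tables.

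Genes were named by fixed rules: the 15 strongest single-gene loci in each direction with at least 5 FPKM in a group, up to 8 called members per list, the 8 highest levels, loci called in all 4 flight and ground tables or in opposite directions, loci at 0, called family members and called microRNA precursors. Outside these rules, genes marked in the text and FED A, ABF3, ERD14, ARR4, SCR, XTH9, XTH19, XTH32 and the peroxidases AT5G19890 and AT2G18150 were chosen after their values were seen. The values of 1 called gene of the endodermis and suberin list are not reported here. The 32 lists (1143 genes matched, 89 of 1276 symbols unmatched) and the members were chosen with earlier results of these data known. Sequences and positions are from RefSeq TAIR10.1; all 770 single-gene loci compared overlapped their gene. Promoter motifs were searched on both strands of the 250 bases before the gene start. Python 3.11.15, pandas 2.3.3, numpy 2.4.6 and matplotlib 3.10.9 were used.

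Alternatives were stricter q-values, minimum levels and folds, an added 1 or 0.1 FPKM, merged loci left out, and levels from other tables.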

Additional observations from a re-analysis of the deposited data

How the results depend on the processing

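Of 36 alternatives to the main counts and medians, 24 stayed close to the main value (a count within 1.5 times). A reversal was not possible, because a count has no direction and each median was taken over loci already split by direction. The 252 loci higher in flight became 150 with a q-value of at most 0.01, 117 at the authors' smallest p-value, 51 at 2-fold and 37 at 2-fold with 1 FPKM added. The 560 loci lower became 359, 264, 52 and 37 under the same settings. The share of lower loci was 70.5% with a q-value of at most 0.01, 50.5% at 2-fold and 50% at 2-fold with 1 FPKM added. Loci called in the same direction in Col-0 at 4 days went from 303 to 163 with a q-value of at most 0.01 in both tables and to 37 at 2-fold in both, and in Sku6 at 8 days from 187 to 111 and 28. Fewer loci pass a stricter limit by construction. Of 174 named loci with a fold, the fold of 8 moved by over 1.5 times with 1 FPKM added. Among them RBOHA went in log2 from -1.25 to -0.67. The same amount added to both levels cannot reverse a direction. Of 54 named loci whose levels could be taken from the tables of the ages instead, 0 moved. Those levels came from the same samples and differed by up to 1.04-fold between comparisons, so a move of 1.5 times could not occur. Of 29 lists with called members, 28 counts moved at 2-fold, where 13 lists kept none, 9 with a q-value of at most 0.01 and 1 with merged loci left out. No paired analysis was possible because the tables hold 1 pooled value per group. For the same reason leaving out each replicate was not run. Unknown depth limits what can be said of levels under 2 FPKM in a group, which applied to 40 loci.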
